A study of Homo sapiens with 5 samples.

Results

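Most proteins of the mitochondrion are made in the cytosol and imported, and the 36 genes described here encode the machinery of that import and of folding in the matrix. The translocase of the outer membrane (TOM) receives precursors, the translocases of the inner membrane (TIM22 and TIM23) insert or pull them further, and small TIM chaperones carry hydrophobic precursors across the space between the membranes. A chaperone motor draws presequence proteins into the matrix, a peptidase removes the presequence, chaperones fold the product, and separate assemblies build outer membrane barrels (SAM) and oxidise proteins of the intermembrane space (MIA). All 36 symbols were found among the 20030 in each deposited table, and all 36 passed the filter for testing, at least 1 FPKM in at least 1 library. FPKM scales each gene's fragments by a length for the gene and by the fragments counted in the library. No source used here gives the lengths used, so levels and ratios between genes are approximate.

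The members were chosen by function, but the list was drawn up with earlier results of these data known, in which TOMM22 stood higher in the SP1 siRNA and SP3 siRNA libraries than in the controls. Differences from the controls are therefore given as a description. The fit's calls in those comparisons are counted beside the share of all genes called, and nothing about the list is read from them.

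RNA was sequenced from HCT116, a human colorectal cancer cell line, after siRNA against SP1, against SP3 or against both, with control cells labelled NC. There were 2 control libraries and 1 library of each knockdown, so no knockdown value has a replicate check. Both proteins belong to a family of zinc finger factors that bind GC-rich boxes in many promoters of housekeeping genes. No source used here gives the siRNA sequences and amounts, the hours of treatment or whether the controls were separate cultures. The spread between the controls may thus be technical. The FPKM steps gave denominators of 14678068 to 15970519 reads per library.

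The control libraries had SP1 at 36.9 ± 0.40 FPKM (SD, n = 2), of which 42.9% was left with the SP1 siRNA, 74.5% with the SP3 siRNA and 43.6% with both. Their SP3 level was 13.1 ± 0.188 FPKM (SD, n = 2), and the same libraries had 109%, 41.3% and 50.7% of it. The epithelial markers EPCAM, CDH1, KRT8, KRT18 and KRT19 were between 38.6 and 2361 FPKM in every library, while VIL1 was at 0.0233 FPKM or lower and CDX2 at 1.15 FPKM or lower. Of the 7 epithelial markers, 4 (CDH1, KRT18, VIL1 and CDX2) were below both controls in all 3 knockdown libraries and 0 above. Of all genes tested, 24.4% were below and 26.9% above by the same rule. VIL1 rested on 1 read in each control and 0 in each knockdown. KRT18 was at 750 and 740 FPKM in the controls. With the SP1 siRNA, the SP3 siRNA and both it was at 408, 284 and 153 FPKM. KRT8 was at 1749 and 1799 FPKM in the controls and at 1737, 2361 and 2253 FPKM in those libraries. KRT19 was at 1362 and 1321 FPKM in the controls and at 1251, 1428 and 1571 FPKM in them. Of 6 leukocyte markers, 5 (PTPRC, LYZ, TYROBP, CD14 and HLA-DRA) were below both controls in all 3 knockdown libraries, beside the same 24.4%. TYROBP was at 0 in each of those libraries. LYZ was at 11.1 and 12.2 FPKM in the controls and at 0.258, 0.124 and 0.045 FPKM with the SP1 siRNA, the SP3 siRNA and both, and PTPRC at 0.930 and 0.717 FPKM against 0.0198, 0.0095 and 0 FPKM. The sum of the 6 was 86.7 and 88.0 FPKM in the controls and 62.0 to 97.7 FPKM in the knockdowns, most of it CD68. Of 4 fibroblast markers COL1A1 alone exceeded 1 FPKM, at 4.21 to 8.88 FPKM, and DCN was at 0 in 4 of the 5 libraries. COL1A1 and COL1A2 were below both controls in all 3 knockdown libraries, and PDGFRB was above both. What part these markers' cells have in the import genes' levels was not tested.

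In the controls the levels of the 36 genes spanned a wide range. The matrix chaperonin HSPD1 was highest at 184 FPKM on average, followed by the TOM subunits TOMM7 (127 FPKM), TOMM20 (107 FPKM) and TOMM6 (101 FPKM) and the motor chaperone HSPA9 (73.0 FPKM). PAM16 was lowest at 0.876 FPKM, then TIMM8A (2.77 FPKM), TOMM40L (3.38 FPKM) and TIMM10 (3.88 FPKM). PAM16 rested on 6 to 18 recovered reads per library and every other member on 55 to 8830. The 2 controls differed on the log2(FPKM + 1) scale by a median of -0.005 over the members, control 2 minus control 1, with HSPE1 furthest apart at 0.40.

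TOMM22 was above the controls with either siRNA, while TOMM40 and TOMM34 were above them with one and below them with the other. These genes were chosen after their values were seen. Their promoters are printed with their GC boxes, the GGGCGG hexamer that SP factors are known to bind. The sequences come from RefSeq on GRCh38.p14, from the 250 bases before the gene start. Each is the unbroken stretch nearest that start without a base that GENCODE 29 lists as exon of any gene, so the TOMM22 stretch ends at an exon further upstream. Coordinates are of that build and not of the authors' files (build not given in the sources used here). TOMM22 lies at chr22:38681821-38681947 on the plus strand, TOMM40 at chr19:44891004-44891219 on the plus strand and TOMM34 at chr20:44960487-44960647 on the minus strand. Capitals mark GGGCGG or its reverse complement CCGCCC.
TOMM22: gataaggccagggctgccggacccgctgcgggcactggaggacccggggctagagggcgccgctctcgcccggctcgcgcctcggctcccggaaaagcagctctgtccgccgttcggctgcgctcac
TOMM40: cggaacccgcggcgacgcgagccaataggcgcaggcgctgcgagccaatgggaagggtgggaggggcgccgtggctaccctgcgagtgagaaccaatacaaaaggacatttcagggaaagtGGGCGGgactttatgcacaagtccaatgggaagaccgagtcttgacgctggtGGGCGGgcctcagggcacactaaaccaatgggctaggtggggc
TOMM34: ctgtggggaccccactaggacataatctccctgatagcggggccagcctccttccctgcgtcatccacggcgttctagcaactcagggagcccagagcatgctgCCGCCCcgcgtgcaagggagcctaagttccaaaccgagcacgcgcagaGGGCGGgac
The TOMM22 stretch of 127 bases holds no such hexamer and that of TOMM40 holds 2, as does that of TOMM34. Over the full 250 bases the counts were 0 for TOMM22, 3 for TOMM40 and 4 for TOMM34. A promoter window was listed for 33 members, of which 22 (66.7%) had at least 1 box, against 7129 of 9273 tested genes with a window (76.9%). The members with most boxes were PMPCA and TIMM50 with 5 each. No window was listed for TOMM5, TIMM8B and GRPEL1. Of the members with no box, TOMM6, TOMM22, TIMM23 and PMPCB lay above both controls in every knockdown library, and TOMM20 and TIMM22 below both. TOMM7, TIMM17B, TIMM21, MTX1 and CHCHD4, also without a box, did neither. Whether boxes go with the levels was not tested. The box counts are matches of letters and show no binding.

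TOMM22, the central receptor that holds the TOM complex together, showed the largest difference of any member. Its level was 8.88 and 8.67 FPKM in the controls, 57.8 FPKM with the SP1 siRNA, 49.8 FPKM with the SP3 siRNA and 48.7 FPKM with both. All 3 knockdown libraries lay far above the controls and close to each other. The ratios to the control mean were 6.58 (95% interval for counting error 5.87 to 7.41), 5.67 (5.04 to 6.39) and 5.55 (4.92 to 6.26). The log2 differences were 2.59 ± 0.07 (SE), 2.38 ± 0.07 and 2.35 ± 0.07. GENCODE 29 names 6 pseudogenes for TOMM22 and shows no overlapping gene, and no source used here says how reads shared with such copies were counted.

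TOMM5, a small subunit that stabilises the complex, went the other way. It stood at 64.3 and 66.2 FPKM in the controls, 13.1 FPKM with the SP1 siRNA, 44.7 FPKM with the SP3 siRNA and 21.0 FPKM with both. The SP1 siRNA library had the lowest level, the SP3 siRNA library lay nearest the controls, and no knockdown overlapped them. The level was 20.03% of control (17.1 to 23.3%), 68.6% (62.6 to 75.0%) and 32.1% (28.2 to 36.4%), with log2 differences of -2.24 ± 0.07, -0.53 ± 0.07 and -1.59 ± 0.07. An additive model of the 2 siRNAs put the SP3 siRNA estimate at -0.03. The ratio of TOMM5 to TOMM22 FPKM was 7.24 and 7.63 in the controls and 0.226, 0.899 and 0.430 in the SP1 siRNA, SP3 siRNA and double knockdown libraries.

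TOMM40, the channel of the complex, was high with one siRNA and low with the other. Its level was 33.5 and 34.2 FPKM in the controls, 54.9 FPKM with the SP1 siRNA, 18.1 FPKM with the SP3 siRNA and 33.0 FPKM with both. The double knockdown lay just below the controls. The log2 differences were 0.68 ± 0.07, -0.87 ± 0.07 and -0.04 ± 0.07. Its paralog TOMM40L was at 3.33 and 3.44 FPKM in the controls, 3.36 FPKM with the SP1 siRNA, 1.48 FPKM with the SP3 siRNA and 2.67 FPKM with both. Only the SP1 siRNA value fell among the controls, and the SP3 siRNA level was 43.9% of control (33.3 to 57.1%).

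TOMM34, a cytosolic co-chaperone of precursors, had the opposite order. It stood at 13.9 and 13.7 FPKM in the controls, 9.21 FPKM with the SP1 siRNA, 22.8 FPKM with the SP3 siRNA and 18.3 FPKM with both. The log2 differences were -0.53 ± 0.08, 0.69 ± 0.08 and 0.38 ± 0.08. Of the remaining TOM genes, the presequence receptor TOMM20 was below both controls in all 3 knockdowns, at 93.1, 84.6 and 75.7 FPKM against 105 and 110 FPKM. The receptor for carrier precursors TOMM70 was above both controls in each, at 21.3, 20.6 and 21.5 FPKM against 17.3 and 16.8 FPKM. The small subunit TOMM6 was also above them, at 142, 111 and 128 FPKM against 104 and 97.9 FPKM, and TOMM7 stayed within -0.03 to 0.08 of the control mean on the log2 scale. The summed FPKM of the 9 genes listed under TOM, the cytosolic TOMM34 included, was 480 and 475 in the controls and 529, 480 and 473 in the knockdowns.

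**Figure D1:**
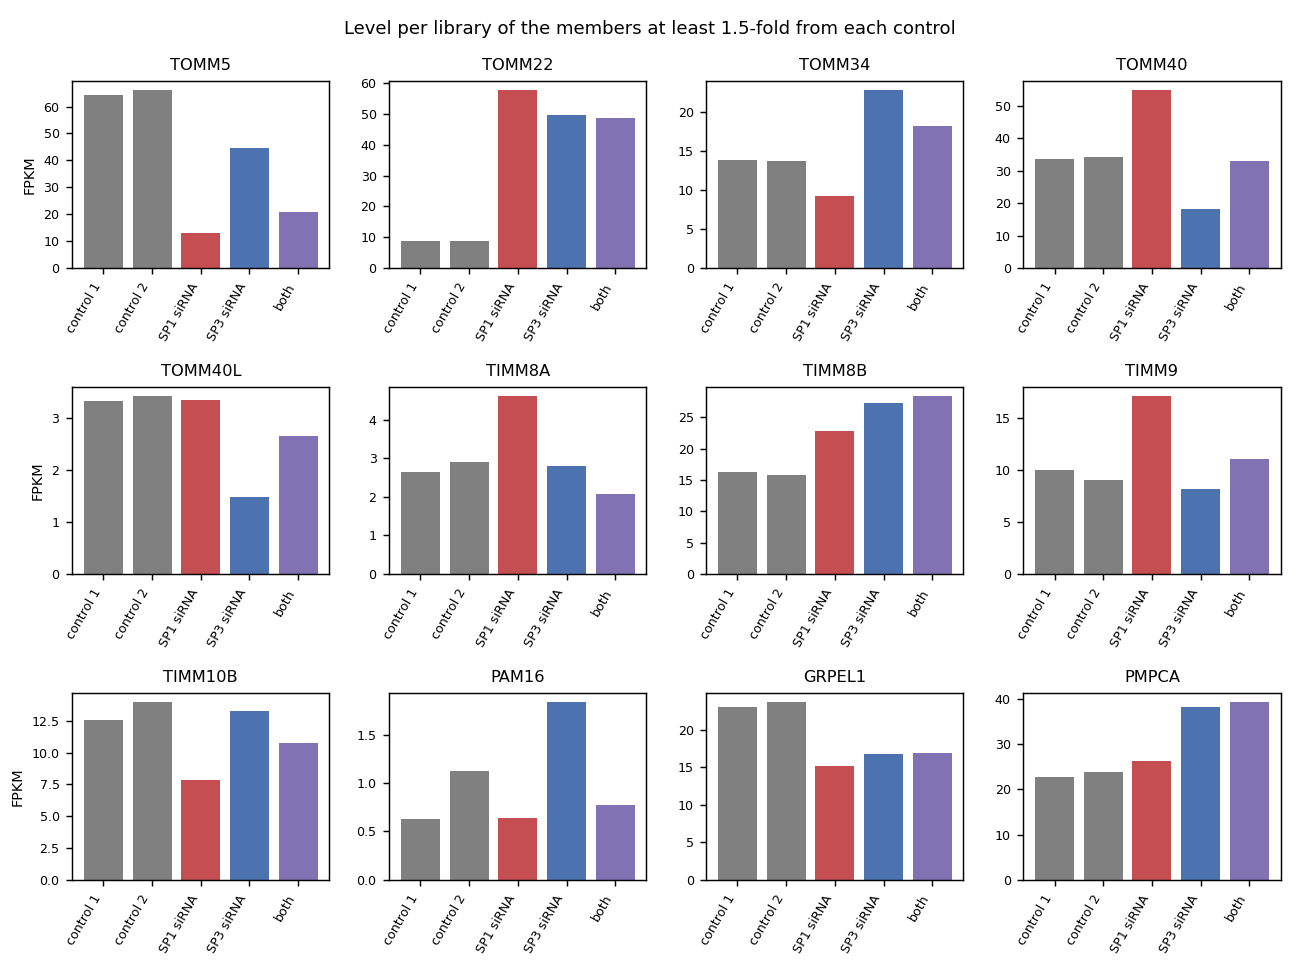
Level in FPKM (linear axis from 0) of the 12 members at least 1.5 times higher, or at least 1.5 times lower, than each control in a knockdown library. Each bar is 1 library, so there are no error bars. TOMM22 is high in all 3 knockdown libraries, TOMM5 is low in them, and TOMM40 is above the controls with the SP1 siRNA and below them with the SP3 siRNA.

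The small TIM chaperones form hexamers, TIMM9 with TIMM10 and TIMM8A with TIMM13, and TIMM8B is a close relative of TIMM8A. TIMM9 stood at 10.02 and 9.04 FPKM in the controls, 17.2 FPKM with the SP1 siRNA, 8.15 FPKM with the SP3 siRNA and 11.1 FPKM with both. The SP1 siRNA library was the highest, 1.80 times the control mean (1.56 to 2.08), and the SP3 siRNA library was just below the controls. TIMM8A was at 2.65 and 2.89 FPKM in the controls, 4.62 FPKM with the SP1 siRNA, 2.81 FPKM with the SP3 siRNA and 2.07 FPKM with both. It rested on 55 to 128 reads, and the double knockdown interval (54.1 to 102% of control) reached the control level.

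TIMM8B was above the controls in each knockdown, at 22.9, 27.3 and 28.4 FPKM against 16.3 and 15.8 FPKM, with log2 differences of 0.49 ± 0.08, 0.74 ± 0.08 and 0.79 ± 0.08. The ratio of TIMM8A to TIMM8B FPKM was 0.163 and 0.183 in the controls, 0.202 with the SP1 siRNA, 0.103 with the SP3 siRNA and 0.0730 with both. TIMM10B, which links the small TIMs to the TIM22 complex, was lowest with the SP1 siRNA, at 7.84 FPKM against 12.6 and 14.0 FPKM in the controls, 13.3 FPKM with the SP3 siRNA and 10.8 FPKM with both. TIMM10 and TIMM13 lay above both controls in every knockdown, with log2 differences of 0.12 to 0.40 and 0.07 to 0.43. On the opposite strand in GENCODE 29, TIMM9 overlaps KIAA0586 and TOMM20L, TIMM8B overlaps SDHD, and TIMM10B overlaps ARFIP2. No source used here says whether reads were counted by strand.

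In the inner membrane, the TIM22 complex inserts carriers. Its channel TIMM22 was below both controls in each knockdown, at 5.37, 4.87 and 5.22 FPKM against 6.74 and 7.85 FPKM. Its subunit TIMM29 was at 7.92 FPKM with the SP1 siRNA, among the controls of 8.30 and 7.83 FPKM, and higher at 11.2 and 11.7 FPKM with the SP3 siRNA and with both. The TIM23 channel gene TIMM23 was above both controls in each knockdown, at 19.8, 25.2 and 20.3 FPKM against 17.3 and 15.4 FPKM. It has a near copy, TIMM23B (4.47 to 8.45 FPKM, a gene added after its values were seen), so reads could be split between them.

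The paralogs TIMM17A and TIMM17B, alternative partners of TIMM23, lay on opposite sides of the controls with either siRNA alone. With both siRNAs both genes lay above the controls. TIMM17A stood at 39.4 and 40.6 FPKM in the controls, 35.6 FPKM with the SP1 siRNA, 52.0 FPKM with the SP3 siRNA and 47.1 FPKM with both. TIMM17B stood at 12.6 and 13.3 FPKM in the controls, 18.9 FPKM with the SP1 siRNA, 11.3 FPKM with the SP3 siRNA and 13.5 FPKM with both. Its SP3 siRNA interval (73.4 to 103% of control) reached the control level. The ratio of TIMM17A to TIMM17B FPKM was 3.13 and 3.06 in the controls, 1.88 with the SP1 siRNA, 4.62 with the SP3 siRNA and 3.49 with both. The TIM23 subunit TIMM21 differed by -0.39 to 0.20 and the presequence receptor TIMM50 by -0.29 to 0.05 on the log2 scale.

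In the presequence motor, HSPA9 is the matrix Hsp70 and GRPEL1 its nucleotide exchange factor. GRPEL1 was below both controls in each knockdown, at 15.2, 16.8 and 16.9 FPKM against 23.1 and 23.7 FPKM, and the 3 knockdown levels were close. Its paralog GRPEL2 was above both controls, at 9.77, 14.2 and 12.4 FPKM against 6.24 and 6.42 FPKM. The ratio of GRPEL1 to GRPEL2 FPKM was 3.70 and 3.70 in the controls and 1.56, 1.18 and 1.36 in the SP1 siRNA, SP3 siRNA and double knockdown libraries. HSPA9 stood at 74.4 and 71.7 FPKM in the controls, 89.1 FPKM with the SP1 siRNA, 62.7 FPKM with the SP3 siRNA and 68.1 FPKM with both.

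TIMM44, which tethers the motor to the channel, differed by 0.12 to 0.44 and the J protein DNAJC19 by -0.47 to 0.02 on the log2 scale. PAM16, the partner of DNAJC19, was at 0.624 and 1.13 FPKM in the controls, 0.637 FPKM with the SP1 siRNA, 1.84 FPKM with the SP3 siRNA and 0.778 FPKM with both. The SP3 siRNA ratio of 2.10 had a counting interval of 1.02 to 4.32, and PAM16 shares exons with the readthrough gene CORO7-PAM16.

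The matrix processing peptidase has a subunit PMPCA and a catalytic subunit PMPCB. PMPCA stood at 22.7 and 23.8 FPKM in the controls, 26.3 FPKM with the SP1 siRNA, 38.3 FPKM with the SP3 siRNA and 39.4 FPKM with both. The libraries with SP3 siRNA were highest, at 1.65 (1.55 to 1.75) and 1.70 (1.60 to 1.80) times the control mean. PMPCB was at 13.4, 12.4 and 13.5 FPKM against 9.43 and 9.54 FPKM, and no knockdown overlapped the controls for either gene. PMPCA overlaps ENTR1 and PMPCB overlaps DNAJC2 on the opposite strand.

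The chaperonin genes HSPD1 and HSPE1 lie head to head and encode the barrel and its lid. Both were above the controls with the SP3 siRNA, and neither was 1.5-fold from each control in any knockdown. HSPD1 stood at 184 and 185 FPKM in the controls, 191 FPKM with the SP1 siRNA, 227 FPKM with the SP3 siRNA and 168 FPKM with both. HSPE1 was at 9.43 and 12.8 FPKM in the controls and at 11.3, 14.1 and 13.9 FPKM in the knockdowns. The ratio of HSPD1 to HSPE1 FPKM was between 12.1 and 19.5 over the 5 libraries, and GENCODE 29 names 17 pseudogenes for HSPD1 and 26 for HSPE1.

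None of the barrel assembly and oxidation genes was 1.5-fold from each control. The barrel protein SAMM50 was at 15.9 and 15.7 FPKM in the controls, 13.5 FPKM with the SP1 siRNA, 19.97 FPKM with the SP3 siRNA and 15.6 FPKM with both. The metaxins MTX1 and MTX2 lay within -0.19 to 0.26 of the control mean on the log2 scale. The oxidoreductase CHCHD4 and the oxidase GFER that recharges it were highest with the SP1 siRNA, at 7.07 FPKM against 5.45 and 4.71 FPKM and at 16.3 FPKM against 12.3 and 11.7 FPKM. With the SP3 siRNA both were below the controls, at 4.49 and 9.96 FPKM.

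**Figure D2:**
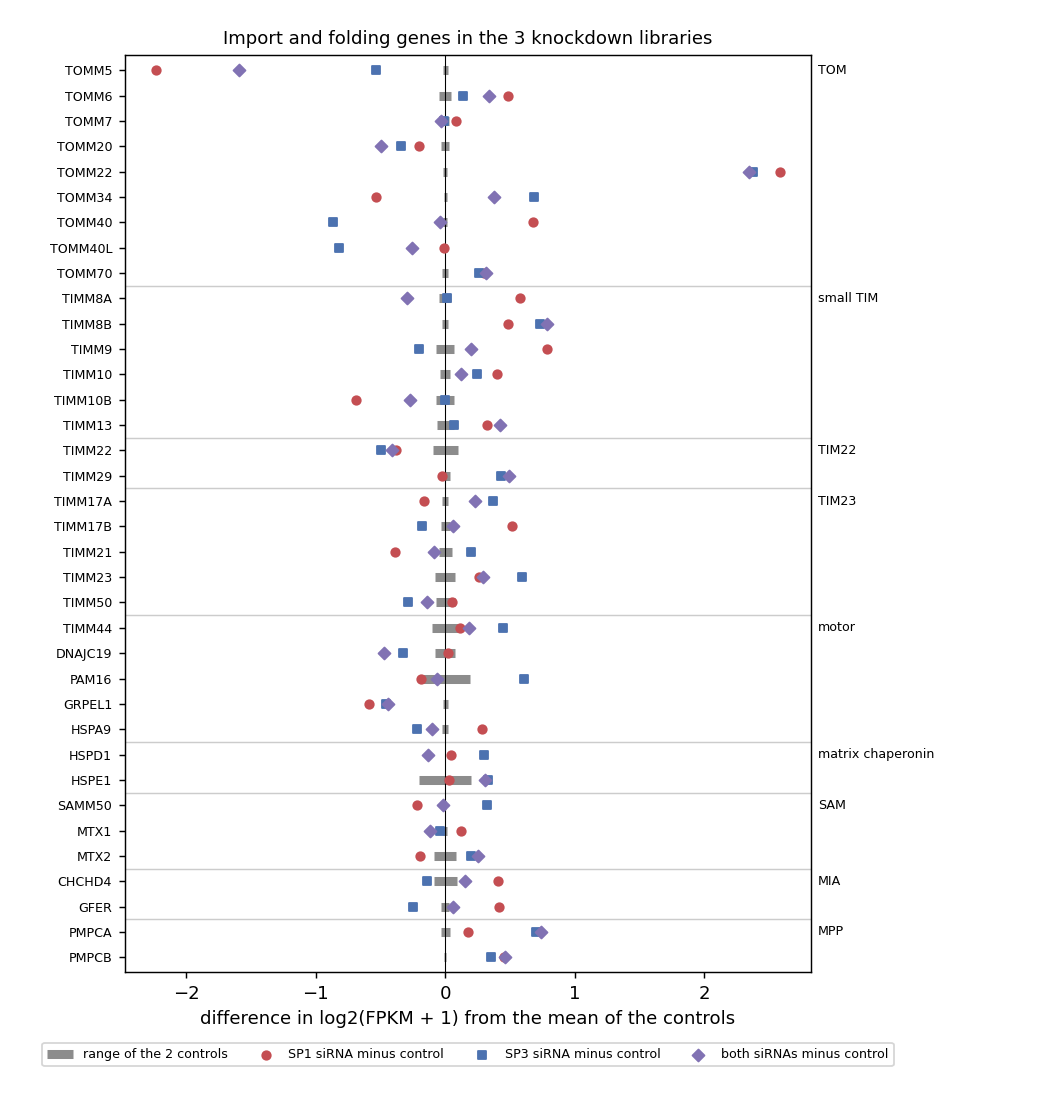
Difference in log2(FPKM + 1) from the control mean (horizontal axis) for each of the 36 members (rows, grouped by role) in the SP1 siRNA (circle), SP3 siRNA (square) and double knockdown (diamond) libraries; the grey bar spans the 2 controls. TOMM22 lies furthest to the right, at 2.35 to 2.59, and TOMM5 furthest to the left, at -2.24 with the SP1 siRNA, while most other genes lie within 1 of the controls.

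With the SP1 siRNA, limma called 16 of 36 members higher and 9 lower at an adjusted p under 0.05, beside 36.5% and 28.8% of the 11728 genes tested. The members' median log2 difference was 0.10 and that of all genes 0.06. Median-ratio scaling lowered the median of all genes by 0.10 in that comparison and gave 13 members higher and 10 lower, with HSPA9, TIMM23 and PMPCA no longer called. The same scaling turned the split over all genes from 4283 higher and 3383 lower to 3453 higher and 4204 lower. A count without a test, at least 1.5-fold from each control, gave 4 members higher (TOMM22, TOMM40, TIMM8A and TIMM9) and 3 lower (TOMM5, TIMM10B and GRPEL1), beside 18.9% and 14.5% of all genes. With the scaling these were 2 and 4 members, for which no share of all genes was taken.

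With the SP3 siRNA, limma called 14 members higher and 10 lower, beside 29.6% and 32.1% of all genes (median 0.10 over the members and -0.02 over all genes). Median-ratio scaling gave 18 and 10 members, and 3884 genes higher and 3513 lower in all in place of 3466 and 3759. At least 1.5-fold from each control were 5 members that were higher (TOMM22, TOMM34, TIMM8B, PAM16 and PMPCA) and 2 that were lower (TOMM40 and TOMM40L), beside 13.2% and 17.9%. With both siRNAs, 13 members were called higher and 7 lower, beside 31.9% and 31.1% (median 0.06 and 0.01). The scaling gave 12 and 8 members, and 3626 and 3839 genes in place of 3736 and 3651. By fold, TOMM22, TIMM8B and PMPCA were higher and TOMM5 was lower, 3 and 1 members beside 15.0% and 16.8%. The 3 comparisons share their controls.

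These calls rest on the spread between the 2 controls, which the knockdown libraries were assumed to share. With no filter on low values limma called 9 members with the SP1 siRNA, 6 higher and 3 lower, beside 2452 and 1728 of 17125 genes. With the SP3 siRNA it called 8 members, 5 higher and 3 lower, beside 998 and 1108 genes. With both it called 8 members, 5 higher and 3 lower, beside 1629 and 1528 genes. An additive model takes any non-additivity of the double knockdown as spread, and in it few members passed the threshold. With the SP1 siRNA TOMM40 was called higher and TOMM5 lower, beside 3.68% and 3.99% of all genes. With the SP3 siRNA TOMM34, TIMM29 and PMPCA were called higher and TOMM40 lower, beside 6.69% and 8.7%. For both siRNAs the model called TIMM8B and PMPCA higher and TOMM5 lower, beside 7.97% and 8.85%. TOMM22 was not called there, with estimates of 1.47 (SP1 siRNA), 1.254 (SP3 siRNA) and 2.72 (both).

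Across the 3 knockdown libraries, 10 members lay above both controls in every one, beside 26.9% of all genes, namely TOMM6, TOMM22, TOMM70, TIMM8B, TIMM10, TIMM13, TIMM23, TIMM44, PMPCA and PMPCB. Another 4 lay below both controls in every one, beside 24.4% of all genes, namely TOMM5, TOMM20, TIMM22 and GRPEL1.

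The 2 single knockdown libraries were also set directly against each other. With 1 library each, the SE and calls of the reported fit rest wholly on the spread between the controls. They compare these libraries rather than the treatments. Results from both libraries were known when the list was drawn up, so the values are a description, and no p is given for any gene. With the SP3 siRNA limma called 14 members higher and 13 lower than with the SP1 siRNA, beside 26.5% and 36.2% of all genes. TOMM5 was higher with the SP3 siRNA by 1.70 ± 0.08 on the log2 scale and TOMM34 by 1.22 ± 0.09. TOMM40 was lower by a log2 difference of -1.55 ± 0.08, TIMM9 by -0.99 ± 0.11 and TOMM40L by -0.81 ± 0.14. TIMM17A was higher (0.54 ± 0.08) and TIMM17B lower (-0.70 ± 0.10) with the SP3 siRNA. Both genes of the oxidation pathway were lower, GFER by -0.66 ± 0.10 and CHCHD4 by -0.56 ± 0.13. TOMM22 differed by -0.21 ± 0.08, and by -0.05 with median-ratio scaling. That scaling raised the median of all genes by 0.14 and gave 16 members higher and 8 lower, and 4101 genes higher and 3218 lower in all in place of 3103 and 4250. In the additive model TOMM34 was called higher and TOMM40 and TIMM9 lower, beside 586 and 692 of 11728 genes, and TOMM5 was not called. With no filter on low values 7 members were called, 4 higher and 3 lower, beside 1129 and 1507 of 17125 genes. These members were TOMM5, TOMM34, TOMM40, TIMM17A, TIMM17B, HSPA9 and SAMM50.

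The double knockdown was then compared with the sum of the single knockdowns, the interaction. It subtracts the single knockdown differences known when the list was drawn up, so its values are a description, and no p is given for any gene. TOMM22 departed furthest, by -2.62 ± 0.11: each siRNA alone gave about the level that both gave together. TOMM5 departed by 1.18 ± 0.11, and with both siRNAs its level lay between those of the single knockdowns. TIMM8A departed by -0.88 ± 0.18 and GRPEL1 by 0.60 ± 0.12. In all limma called 5 members above the sum and 10 below it, beside 18.5% and 21.0% of all genes. Median-ratio scaling gave 5 and 6 members, beside 2488 and 2216 of 11680 genes. The fit without trend gave 9 in all, 3 above and 6 below, beside 1792 and 2090 of 11728 genes. With no filter on low values limma called 0 members and 0 genes, with 10 members at an unadjusted p under 0.05. No library repeats the double knockdown.

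The double knockdown level lay between the 2 single knockdown levels for 20 members, beside 57.2% of all genes. The median departure of the double knockdown difference was 0.25 from the sum and 0.13 from the mean of the single differences over the members, and 0.31 and 0.15 over all genes tested. Nearer the mean than the sum were 27 of 36 members and 8449 of 11728 genes tested. 

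**Figure D3:**
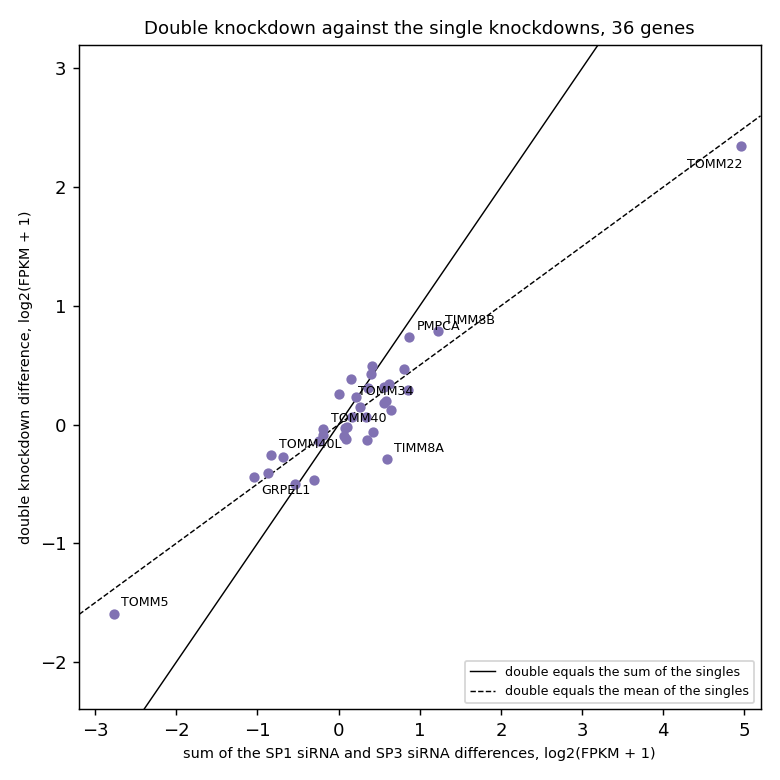
Double knockdown difference from the control mean (vertical axis) against the sum of the 2 single knockdown differences (horizontal axis), both in log2(FPKM + 1), for the 36 members (points). The solid line marks a double knockdown equal to the sum and the dashed line one equal to the mean; TOMM22 and TOMM5 lie near the dashed line and far from the solid one.

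Other genes of import and protein quality control, 49 in a separate list of which 47 were tested, are given for comparison. With the SP1 siRNA 19 were called higher and 17 lower, with the SP3 siRNA 12 and 15, and with both 18 and 15. The shares of all genes called were 36.5% and 28.8%, 29.6% and 32.1%, and 31.9% and 31.1%. CLPP, the matrix protease that partners the unfoldase CLPX, stood at 42.0 and 46.2 FPKM in the controls, 8.20 FPKM with the SP1 siRNA, 32.0 FPKM with the SP3 siRNA and 12.0 FPKM with both. Its order over the libraries was that of TOMM5. CLPX itself was at 13.9, 22.3 and 19.1 FPKM against 16.7 and 15.3 FPKM, a gene named here as the partner of CLPP after its values were seen.

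Proteases and scaffolds of the inner membrane were among the genes furthest from the controls with the SP1 siRNA. The AAA protease AFG3L2 was at 23.8 FPKM against 8.62 and 9.37 FPKM in the controls, and YME1L1 at 18.4 FPKM against 33.0 and 32.5 FPKM. The intermembrane space protease HTRA2 was at 15.1 FPKM against 7.02 and 6.87 FPKM, and the iron-sulfur co-chaperone HSCB at 5.39 FPKM against 2.34 and 2.38 FPKM. The prohibitin PHB was at 59.2 FPKM against 114 and 112 FPKM. With the SP3 siRNA AFG3L2, HTRA2, HSCB, YME1L1 and PHB lay within 0.18 of the control mean on the log2 scale.

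Cytosolic chaperones that hand precursors to the TOM receptors were further from the controls with the SP3 siRNA than with the SP1 siRNA. HSPA8, the constitutive Hsp70, stood at 496 and 544 FPKM in the controls, 665 FPKM with the SP1 siRNA, 1142 FPKM with the SP3 siRNA and 958 FPKM with both. Its J protein partner DNAJA1 was at 31.3 and 31.0 FPKM in the controls and at 44.9, 74.5 and 62.8 FPKM in the knockdowns. The Hsp90 genes diverged. HSP90AA1 was at 387 and 370 FPKM in the controls, 717 FPKM with the SP3 siRNA and 722 FPKM with both, while HSP90AB1 was at 966 and 983 FPKM in the controls, 439 FPKM with the SP3 siRNA and 585 FPKM with both. The copper chaperone COX17, a substrate of the MIA pathway, was at 135 and 151 FPKM in those libraries against 72.7 and 57.5 FPKM. DNAJC11, a J protein of the SAM and cristae scaffold, was at 5.27 FPKM with the SP3 siRNA against 11.6 and 12.1 FPKM, and the matrix J protein DNAJA3 at 23.3 FPKM against 31.9 and 34.3 FPKM.

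**Figure D4:**
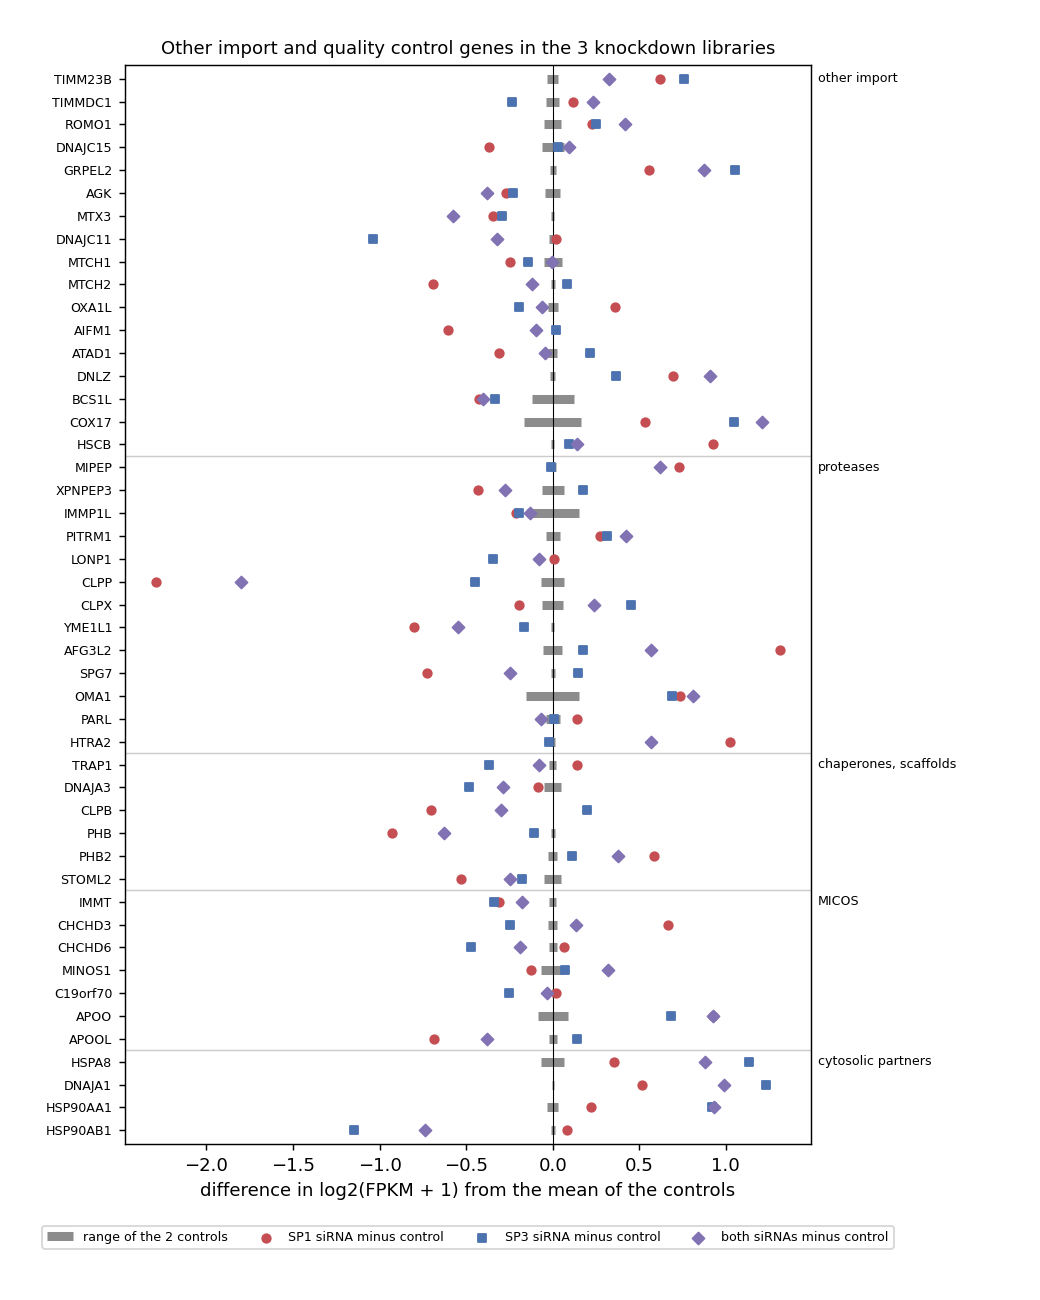
Difference in log2(FPKM + 1) from the control mean (horizontal axis) for the 47 tested genes of the separate list (rows, by role) in the SP1 siRNA (circle), SP3 siRNA (square) and double knockdown (diamond) libraries; the grey bar spans the 2 controls. CLPP lies furthest to the left with the SP1 siRNA, at -2.29, and HSPA8 and DNAJA1 lie at 1.13 and 1.23 with the SP3 siRNA.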

How the data were processed

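Total RNA from HCT116 cells was sequenced in 5 libraries. The authors deposited FPKM values per gene symbol, per the file headers. The tools named per the submitters' processing notes, without their roles, are HTSeq 0.9.1, Cufflinks 2.2.1, HISAT2 2.0.5 and Trimmomatic 0.36 (genome build, annotation and strand setting not given in the sources used here). Of 20030 symbols, 27 read as dates and were not named.

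Differences were tested with limma 3.58.1 (R 4.3.3, empirical Bayes with trend) on log2(FPKM + 1) over the 11728 genes that reached 1 FPKM in any library, with Benjamini-Hochberg adjustment. This scale understates changes of low genes. The fit had 1 mean per group, 1 residual and 13.98 prior degrees of freedom. The fit was also run on simulated data in which all libraries shared the same spread. That run cannot show whether the real knockdown libraries share the spread of the controls.

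Read numbers were recovered from the FPKM steps by taking the shortest length in bases for which all 5 read numbers were whole within 0.02, so they are lower limits. Intervals at 95% are exact binomial and cover counting error only. The members and lists were chosen with earlier results of these data known. Named with all values were members at least 1.5-fold from each control in a knockdown, and of the other list the 3 largest called each way. Other members are named by role.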

Additional observations from a re-analysis of the deposited data

Results flagged for a closer look

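For 15 of 36 members limma's interaction test called the double knockdown different from the sum of the single ones, beside 18.5% of all genes above the sum and 21.0% below it. The interaction in log2(FPKM + 1) was below 0 for TOMM22 (-2.62), TIMM8A (-0.88), TIMM23 (-0.56), TIMM10 (-0.53), HSPD1 (-0.48), TIMM8B (-0.44), TIMM9 (-0.39), TIMM44 (-0.38), PMPCB (-0.34) and TOMM6 (-0.29). It was above 0 for TIMM10B (0.41), TIMM22 (0.46), TOMM40L (0.57), GRPEL1 (0.60) and TOMM5 (1.18). With median-ratio scaling TOMM6, TIMM9, TIMM44 and PMPCB were no longer called. With no filter on low values limma called 0 of the 15, with 10 members at an unadjusted p under 0.05. All these values are a description, since single knockdown results were known when the list was drawn up. Nothing about the list is read from the number called. Each value rests on 1 double knockdown library.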

How the results depend on the processing

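The number of members called fell with the additive model from 25 to 2 (SP1 siRNA), from 24 to 4 (SP3 siRNA), from 20 to 3 (both) and from 27 to 3 (SP3 siRNA against SP1 siRNA). Without control replicate 1 or 2 in that model it was 1 in either case, 0 to 1, 0 to 2 and 2 to 3. The counts of 0, without control replicate 2, had 6 (SP3 siRNA) and 4 (both) members at an unadjusted p under 0.05 by limma. In those fits the TOMM5 difference for the SP3 siRNA was 0.044 and 0.0639, against -0.03 in the additive model with both controls and -0.53 in the reported fit. With no filter on low values, the counts were 9, 8, 8 and 7, and 0 for the interaction by limma (15 in the reported fit), with 10 members at an unadjusted p under 0.05. Without the trend the interaction called 9 members, beside 1792 genes above the sum and 2090 below it. At 2-fold, 2 members differed from each control in each knockdown, in place of 7, 7 and 4. No share of all genes was taken at 2-fold. Pseudocounts of 0.1 and 5, a mean of at least 5 FPKM and median-ratio scaling left the total of members called or counted within 1.5 times in each comparison. By direction, the scaling took the lower calls from 13 to 8 (SP3 siRNA against SP1 siRNA) and from 10 to 6 (interaction), and the members 1.5-fold higher with the SP1 siRNA from 4 to 2. The scaling of the counts of members between the single knockdowns (25 in place of 20) and on one side of both controls (15 in place of 14) was chosen after seeing the data. No paired analysis was possible because only the controls carry replicate numbers. With 1 mean per group, leaving out a control leaves no residual degree of freedom. The causes of these shifts were not tested, and PAM16 is limited by its depth.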
